A study of Mus musculus with 6 samples.

Results

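The E2F transcription factors and their DP partners were described here as 10 genes, E2f1 to E2f8, Tfdp1 and Tfdp2, chosen by name from a deposited table of 54532 mouse genes. All 10 were detected in all 6 libraries and all 10 entered the test between groups. The libraries were 3 control and 3 induced cultures of immortalized cardiosphere-derived cells (iCDCs, called iECDCs in the study), a line grown from the ventricular epicardium of adult C57BL/6 mice. Both groups carried a human telomerase (hTERT) lentivirus, were selected with puromycin and were taken at passage 30. The induced cells had received 10 µM 5-azacytidine (5-aza), an inhibitor of DNA methylation, for 3 days, and by the labels were then kept in IMDM with 2% serum for 4 weeks. The study's methods give another medium and a shorter time for that culture. That treatment text is attached to all 6 samples, controls included, and only the titles and descriptions set the induced samples apart, so what the sequenced control cells received is uncertain. Drug, serum and time in culture therefore cannot be told apart in any value below. The labels describe 3 separate samples per group from 1 immortalized line, so the p-values measure the spread between these samples and not between animals.

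E2F proteins bind DNA as dimers, most of them with a DP protein, and switch genes of DNA replication and cell division on or off. E2F1, E2F2 and E2F3 are the activators, which are held silent by the retinoblastoma protein until cyclin-dependent kinases phosphorylate it. E2F4 and E2F5 repress in resting cells together with the pocket proteins p107 and p130, E2F6 represses with Polycomb group proteins, and E2F7 and E2F8 repress without a DP partner or a pocket protein. In the heart, cardiomyocytes leave the cell cycle around birth, whereas cultured cardiac stromal cells keep dividing.

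Depth was even across the series, with total counts of 19041133 to 19823369 per library. Between libraries of a group, the chi-square of the counts per degree of freedom was 2.56 to 3.4 in control. In the induced group it was 8.91 and 8.04 for the pairs with replicate 2, and 4.68 for the other pair. Of the 14246 genes with enough reads to test, 64.8% changed by edgeR's quasi-likelihood test at an adjusted p of 0.05, 32.6% upward and 32.2% downward, and the median log2 fold change was -0.01. A change of at least 2-fold was less common, at 17.1% of genes, 9.29% upward and 7.83% downward. The groups did not overlap, in either direction, for 68.6% of the tested genes. All 8 mesenchymal markers of cardiosphere-derived cells passed the filter, with a summed level of 15537 to 16308 CPM (reads of a gene relative to all reads of the library, with TMM factors) in control and 14544 to 15156 in induced libraries. Within that sum 5 markers fell and 3 rose, among them Vim and Col1a1 with log2 fold changes of -0.64 and -0.36 and Col3a1 with 0.70. All 6 epicardial markers passed it too, with sums of 376 to 388 CPM in control and 1235 to 1380 in induced libraries. Of these 4 rose and 2 fell, and most of the sum was Upk3b, at 254 and 942 CPM on average, while Tbx18, an epicardial transcription factor, and Aldh1a2 had log2 fold changes of -0.33 and -2.50. The cardiomyocyte markers summed to 11.7 to 14.7 CPM in control and 58.7 to 61.7 in induced libraries, nearly all of it Tnnt2, and 2 of the 8, Tnnt2 and Myl7, had enough reads to test. The endothelial markers, with Tie1 at 0 reads, and the leukocyte markers, with Ptprc, Cd52, Tyrobp, Itgam and Cd3e at 0 reads, each summed to under 1 CPM in every library. The part of these marker shifts in the E2F values below was not tested.

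Several members carry E2F motifs in their own promoter windows, and these stretches were chosen for display with the changes below known. The most strongly lowered members, E2f7 and E2f2, are among them. So is E2f3, which was not called, while E2f6 fell without a motif in its window. RefSeq promoter windows (build GRCm38.p6, 250 bases before to 50 after a start site) were given for 8 of the 10 members, while E2f4 and E2f5 had none. Each window was searched on both strands for the letters TTCCCGC, for the variant TTGGCGC, and for the variants TTCGCGC or else TTGCCGC, and matches may overlap each other. At least 1 of them occurred in windows of 5 of the 8 members (62.5%), namely E2f2, E2f3, E2f7, E2f8 and Tfdp1. For comparison, 10.9% of 27025 genes with a window held one. The share was higher among tested genes with a window, at 1990 of 10323. By window, 6 of 12 of the family (50%) held one, beside 9.57% of all 32851 windows. The windows of E2f1, E2f6 and Tfdp2 did not hold these letters, which says only that the letters are not in these windows. Those of E2f1 and Tfdp2 lie inside the genes as annotated in the deposited table. The bases before the annotated starts of E2f1 and Tfdp2 were therefore not searched. The 250 bases before the RefSeq start of E2f7 and E2f8, and before 1 of the starts of Tfdp1, read as follows. They are written 5′ to 3′ on the gene's strand, with the motif or its reverse complement in capitals.
E2f7 (chr10:110745189-110745438, plus strand): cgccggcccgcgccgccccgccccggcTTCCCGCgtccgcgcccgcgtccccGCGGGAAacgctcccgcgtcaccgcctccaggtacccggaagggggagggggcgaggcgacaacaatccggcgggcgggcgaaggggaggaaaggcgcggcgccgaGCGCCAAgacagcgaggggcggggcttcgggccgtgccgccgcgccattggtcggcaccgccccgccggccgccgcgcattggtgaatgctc
E2f8 (chr7:48881597-48881846, minus strand): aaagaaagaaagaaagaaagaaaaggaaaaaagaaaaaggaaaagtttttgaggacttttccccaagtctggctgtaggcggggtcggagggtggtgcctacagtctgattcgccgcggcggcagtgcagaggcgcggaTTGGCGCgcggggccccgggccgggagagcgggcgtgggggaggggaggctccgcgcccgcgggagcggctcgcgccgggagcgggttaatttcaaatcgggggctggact
Tfdp1 (chr8:13338501-13338750, plus strand): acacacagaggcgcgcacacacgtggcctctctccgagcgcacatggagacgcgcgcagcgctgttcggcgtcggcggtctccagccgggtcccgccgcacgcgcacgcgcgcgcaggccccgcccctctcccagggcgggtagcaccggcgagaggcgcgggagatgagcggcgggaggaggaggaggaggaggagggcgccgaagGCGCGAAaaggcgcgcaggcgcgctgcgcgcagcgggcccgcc

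The E2f7 stretch held 3 motifs, TTCCCGC on the gene's strand at bases -223 to -217 from the start, TTCCCGC on the opposite strand at -198 to -192 and TTGGCGC on the opposite strand at -92 to -86. E2f8 held 1, TTGGCGC at -111 to -105, and Tfdp1 held 1, TTCGCGC on the opposite strand at -43 to -37. From the other RefSeq start of Tfdp1, the same motif lay at -96 to -90. In 1 window of E2f2 the motif lay after the start, and in 1 window of E2f3 the motifs lay on either side of it. The other window of each gene held no E2F motif. For each motif, 30 bases around it are given below in the same notation.
E2f2 (chr4:136172294-136172323, plus strand): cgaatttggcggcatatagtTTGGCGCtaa
E2f3 (chr13:29986056-29986085, minus strand): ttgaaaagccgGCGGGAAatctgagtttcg
E2f3 (chr13:29986027-29986056, minus strand): gcgggaggaccTTGGCGCgtaaaccgtatc
A match of letters is a description of the sequence and was not tested as a site of binding.

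Of the 10 members, 8 changed at an adjusted p of 0.05 by edgeR, to be read against 64.8% of all tested genes. E2f1 and Tfdp2 rose, and E2f2, E2f4, E2f6, E2f7, E2f8 and Tfdp1 fell. E2f3 and E2f5 did not pass the test. The median log2 fold change of the 10 was -0.24, with a range of -1.92 to 0.66, beside -0.01 for all tested genes. Changes of at least 2-fold were seen in 2 members, E2f2 and E2f7, both downward, beside 17.1% of all tested genes in either direction and 7.83% downward. The groups did not overlap in 8 members, 6 of them lower and 2 higher, beside 34.5% and 34.1% of all tested genes. In bulk RNA, fewer cycling cells and less E2F RNA per cell cannot be told apart, and this holds for every fall reported here.

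**Figure D1:**
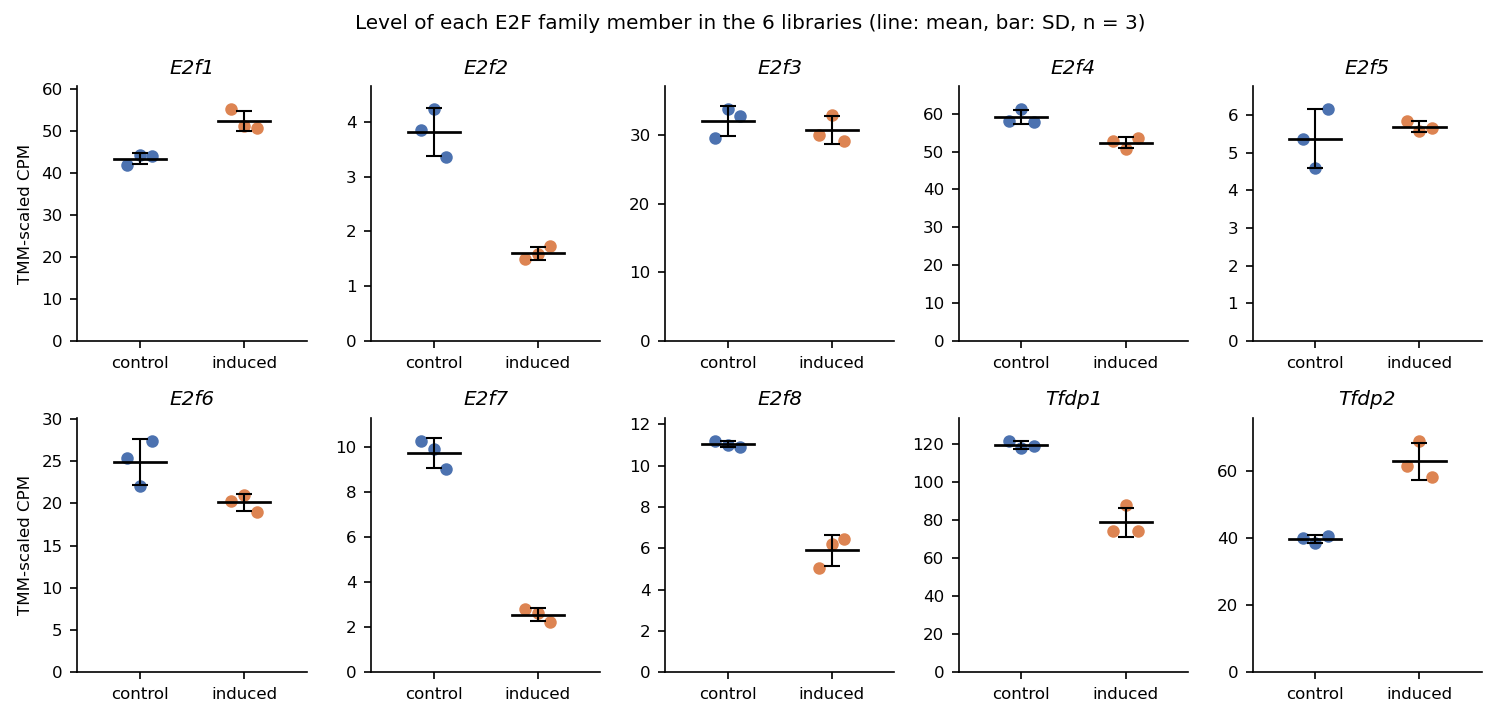
Level of each of the 10 genes in TMM-scaled CPM (vertical axes, each starting at 0) in the 3 control (blue) and 3 induced (orange) libraries, with the mean as a line and the SD as a bar. The groups did not overlap for 8 genes and overlapped for E2f3 and E2f5, and E2f7 fell from 9.02 to 10.3 CPM to 2.25 to 2.82 CPM.

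The activators did not move together. E2f1 (ENSMUSG00000027490, chr2:154559407-154569892, minus strand), the best-known activator of replication genes, stood at 41.9, 44.1 and 44.0 CPM in the control libraries and at 55.1, 51.1 and 50.6 CPM in the induced libraries. All 3 induced libraries were above all 3 control libraries, by a modest margin. The log2 fold change of E2f1 was 0.27 ± 0.06 (SE; edgeR adjusted p = 0.000377, n = 3 per group), a rise of 1.21-fold. No exon of E2f1 is shared with another annotated gene. E2f2 (ENSMUSG00000018983, chr4:136172394-136196057, plus strand), a second activator, was scarce, at 3.85, 4.23 and 3.36 CPM in control and 1.49, 1.58 and 1.73 CPM in induced libraries. These levels rest on 226 reads over the control libraries and 91 over the induced libraries, and the groups did not overlap. E2f2 fell by 1.25 ± 0.21 in log2 units (edgeR adjusted p = 4.13e-05), or 2.38-fold. E2f3 (ENSMUSG00000016477, chr13:29906575-29986063, minus strand), which makes an activating and a shorter isoform from separate promoters, stood at 29.6, 33.8 and 32.8 CPM in control and 30.0, 33 and 29.2 CPM in induced libraries. The groups overlapped, and the difference was -0.06 in log2 units, with a 95% interval of -0.22 to 0.09 (edgeR adjusted p = 0.468). Gene counts add the E2f3 isoforms together, so a shift between them could not be seen.

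The canonical repressors differed little between the groups. E2f4 (ENSMUSG00000014859, chr8:105297663-105305370, plus strand), the main E2F of resting cells, stood at 58.2, 61.2 and 57.9 CPM in control and 52.9, 50.7 and 53.5 CPM in induced libraries. The groups did not overlap, but the gap was narrow. E2f4 fell by 0.17 ± 0.05 in log2 units (edgeR adjusted p = 0.00826), or 1.13-fold. E2f5 (ENSMUSG00000027552, chr3:14578641-14606309, plus strand), its closest relative, stood at 5.37, 4.59 and 6.16 CPM in control and 5.85, 5.58 and 5.66 CPM in induced libraries. The induced values lay within the control range. The difference of E2f5 was 0.08 in log2 units, with a 95% interval of -0.23 to 0.40 (edgeR adjusted p = 0.644). Of its exon bases, 1.46% lie opposite 1810022K09Rik, which had 2071 reads in the 6 libraries together beside 643 of E2f5.

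All 3 pocket-independent repressors fell. E2f7 (ENSMUSG00000020185, chr10:110745439-110787384, plus strand), an atypical repressor that is itself an E2F target, stood at 10.3, 9.94 and 9.02 CPM in control and 2.82, 2.63 and 2.25 CPM in induced libraries. The lowest control library was above the highest induced library by a wide margin. E2f7 fell by 1.92 ± 0.15 in log2 units (edgeR adjusted p = 1.87e-09), or 3.79-fold, the most of the 10 members. Of its exon bases, 0.955% lie opposite 1700020G17Rik, which had 0 reads. E2f8 (ENSMUSG00000046179, chr7:48866429-48881596, minus strand), which acts with E2F7, stood at 11.2, 11 and 10.9 CPM in control and 5.05, 6.21 and 6.45 CPM in induced libraries. The control libraries were nearly level, and the induced libraries were all lower. E2f8 fell by 0.90 ± 0.12 in log2 units (edgeR adjusted p = 3.75e-06), or 1.87-fold. Of its exon bases, 11.2% lie opposite Gm2788, which had 28 reads in the 6 libraries together. E2f6 (ENSMUSG00000057469, chr12:16810963-16839742, plus strand), the Polycomb-linked member, stood at 25.3, 22 and 27.4 CPM in control and 20.3, 21 and 19 CPM in induced libraries. The gap between the groups was small beside the spread of the control libraries. E2f6 fell by 0.31 ± 0.09 in log2 units (edgeR adjusted p = 0.00484), or 1.24-fold.

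The DP partners moved in opposite directions. Tfdp1 (ENSMUSG00000038482, chr8:13338751-13378448, plus strand), the DP1 subunit, stood at 122, 118 and 119 CPM in control and 74.7, 88.0 and 74.5 CPM in induced libraries. All induced libraries were lower, with the induced replicate 2 the highest of them. Tfdp1 fell by 0.60 ± 0.06 in log2 units (edgeR adjusted p = 1.12e-07), or 1.52-fold. A copy of 755 bases with 99.1% identity, Gm7390, had 167 reads in the 6 libraries together beside 7112 and 4500 reads of Tfdp1 in the 2 groups, so a few reads may have been assigned to either. Tfdp2 (ENSMUSG00000032411, chr9:96196275-96323646, plus strand), the DP2 subunit, stood at 40.1, 38.4 and 40.6 CPM in control and 61.3, 68.9 and 58.2 CPM in induced libraries. Every induced library was above every control library. Tfdp2 rose by 0.66 ± 0.06 in log2 units (edgeR adjusted p = 4.28e-08), or 1.58-fold.

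Levels of different members were compared in FPKM, which the authors scaled by gene length. Tfdp1 led the control group with 32.4 ± 0.556 FPKM (SD, n = 3), ahead of E2f4 with 23.9 ± 0.687 and E2f1 with 13.6 ± 0.383. E2f3 followed at 5.85, E2f6 at 4.36, E2f5 at 2.99, Tfdp2 at 2.80, E2f8 at 2.01, E2f7 at 1.07 and E2f2 at 0.773 FPKM. Of the neighbours in that order, only E2f5 and Tfdp2 had overlapping libraries. In the induced group, Tfdp1 at 21.5 ± 2.07 FPKM overlapped E2f4 at 21.3 ± 0.626, and E2f1 followed them at 16.5 ± 0.781. E2f3 was next at 5.65 FPKM. Tfdp2 followed at 4.47 FPKM, above E2f6 at 3.54 and E2f5 at 3.19. At the foot of the order, E2f8 stood at 1.08 FPKM, and E2f2 at 0.327 and E2f7 at 0.284 overlapped.

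The make-up of the E2F transcripts shifted more than their sum. The 8 E2F genes summed to 53.5, 55.0 and 55.2 FPKM in control and 52.9, 51.4 and 51.5 FPKM in induced libraries, a narrow gap without overlap. The activators held 36.2, 37.9 and 37.2% of that sum in control and 43.9, 43.8 and 42.3% in induced libraries. E2f1 alone went from 24.9 ± 0.281% to 31.8 ± 0.972% (SD, n = 3). The canonical repressors held 49.3 ± 0.496% and 47.2 ± 1.16%, and the pocket-independent repressors 13.6 ± 0.903% and 9.46 ± 0.463%. The groups did not overlap in any of these shares, which are descriptions of the deposited values with no test. Activator FPKM over that of E2f7 and E2f8 together was 6.11, 6.76 and 6.88 in control and 18.8, 15.8 and 15.2 in induced libraries. The ratio of Tfdp1 to Tfdp2 FPKM was 11.6, 11.8 and 11.2 in control and 4.66, 4.89 and 4.89 in induced libraries. Transcript levels say nothing of the E2F protein bound to DNA.

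**Figure D2:**
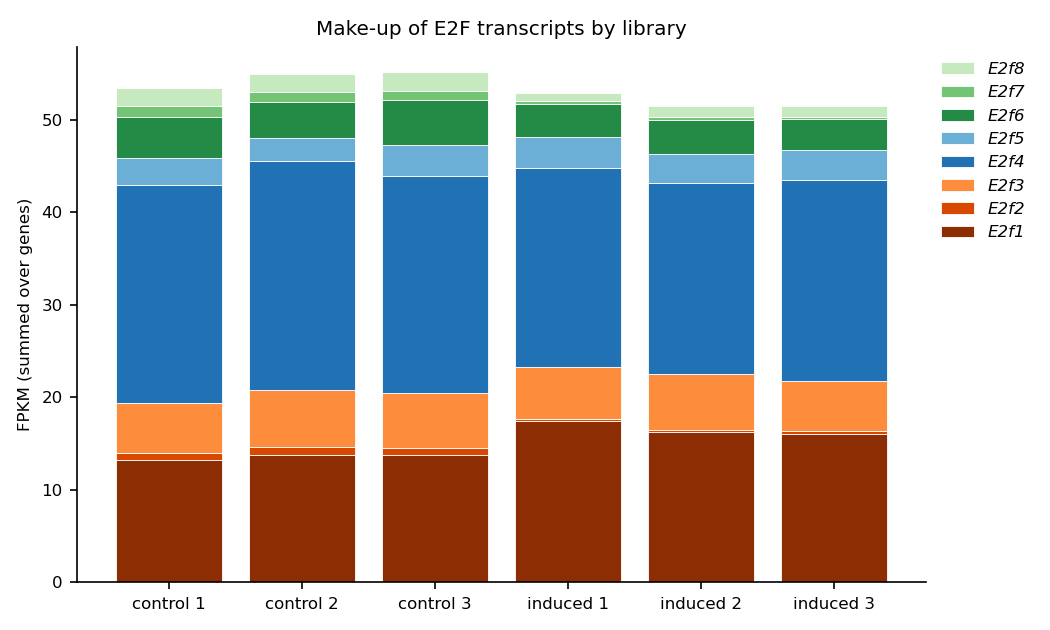
Summed FPKM (vertical axis, from 0) of the 8 E2F genes in each of the 6 libraries (bars), with activators in orange-brown, canonical repressors in blue and pocket-independent repressors in green. The height stayed between 51.4 and 55.2 FPKM, while the E2f1 segment grew from a mean of 13.6 to 16.5 FPKM and the E2f7 segment shrank from 1.07 to 0.284 FPKM.

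The pocket proteins, which bind E2Fs, changed in both directions. Rb1, the retinoblastoma gene that holds the activators silent, stood at 13, 12.3 and 9.92 CPM in control and 15.5, 21.2 and 16.8 CPM in induced libraries, a rise of 0.60 ± 0.12 in log2 units (edgeR adjusted p = 0.00031). Rbl2, which encodes p130, the pocket protein of resting cells, rose by 0.50 ± 0.06 in log2 units (edgeR adjusted p = 4.6e-07). Rbl1, which encodes p107 and is itself an E2F target, fell by 0.89 ± 0.09 in log2 units (edgeR adjusted p = 8.01e-08), from 18.5, 19.1 and 19.6 CPM to 9.94, 10.2 and 10.8 CPM. Within the summed FPKM of the 3 genes, Rbl1 went from 32.3 ± 1.32% to 15.1 ± 1.16% (SD, n = 3), Rb1 from 19.8 ± 2.57% to 25.9 ± 2.63% and Rbl2 from 47.9 ± 1.68% to 58.9 ± 1.79%. Reads of genes on the opposite strand (Rcbtb2 and Lpar6 at Rb1, Aktip at Rbl2) cannot be told apart from theirs where exons overlap, since the strand setting of the counting is not given in the sources used here.

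Upstream, 5 of the 8 cyclins and kinases that release E2F from the pocket proteins fell and 2 rose, beside 32.2% and 32.6% of all tested genes, with a median log2 fold change of -0.50. Ccne1, the cyclin E gene and an E2F target, fell by 1.20 ± 0.11 in log2 units (edgeR adjusted p = 3.34e-08), from a control range of 13.2 to 14.8 CPM to an induced range of 5.61 to 6.73 CPM. Its relative Ccne2 fell by 1.00 ± 0.18, and their kinase Cdk2 by 0.42 ± 0.07, in log2 units (edgeR adjusted p = 0.000117 and 3.97e-05). Among the D-type cyclins and their kinases, Cdk4 fell by 0.64 and Ccnd1 by 0.58, Cdk6 rose by 0.44 and Ccnd2 by 0.23, and Ccnd3 differed by 0.03 and did not pass, all in log2 units (edgeR adjusted p = 0.632). Cdk4, Ccnd1 and Ccne2 share 19.7%, 23.4% and 17.4% of their exon bases with genes on the opposite strand.

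Of the 7 cyclin-dependent kinase inhibitors, 5 could be tested, 1 rose and 3 fell, beside 32.6% and 32.2% of all tested genes. Cdkn1a, the p21 gene, stood at 138, 145 and 135 CPM in control and 267, 242 and 259 CPM in induced libraries. It rose by 0.88 ± 0.05 in log2 units (edgeR adjusted p = 4.05e-11). Cdkn2c fell by 0.43, Cdkn1b, the p27 gene, by 0.40 and Cdkn2d by 0.27, in log2 units (edgeR adjusted p = 1.13e-06, 2.92e-06 and 0.00542). Cdkn1c had a log2 fold change of -0.78 with only 56 and 31 reads (edgeR adjusted p = 0.0804). Gm44732, which had 0 reads, lies opposite 30.7% of the Cdkn1c exons. Cdkn2a and Cdkn2b, which lie at 1 locus, had 0 reads in all 6 libraries, which allows up to 0.151 to 0.158 CPM per library when 3 counts are taken as the limit.

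**Figure D3:**
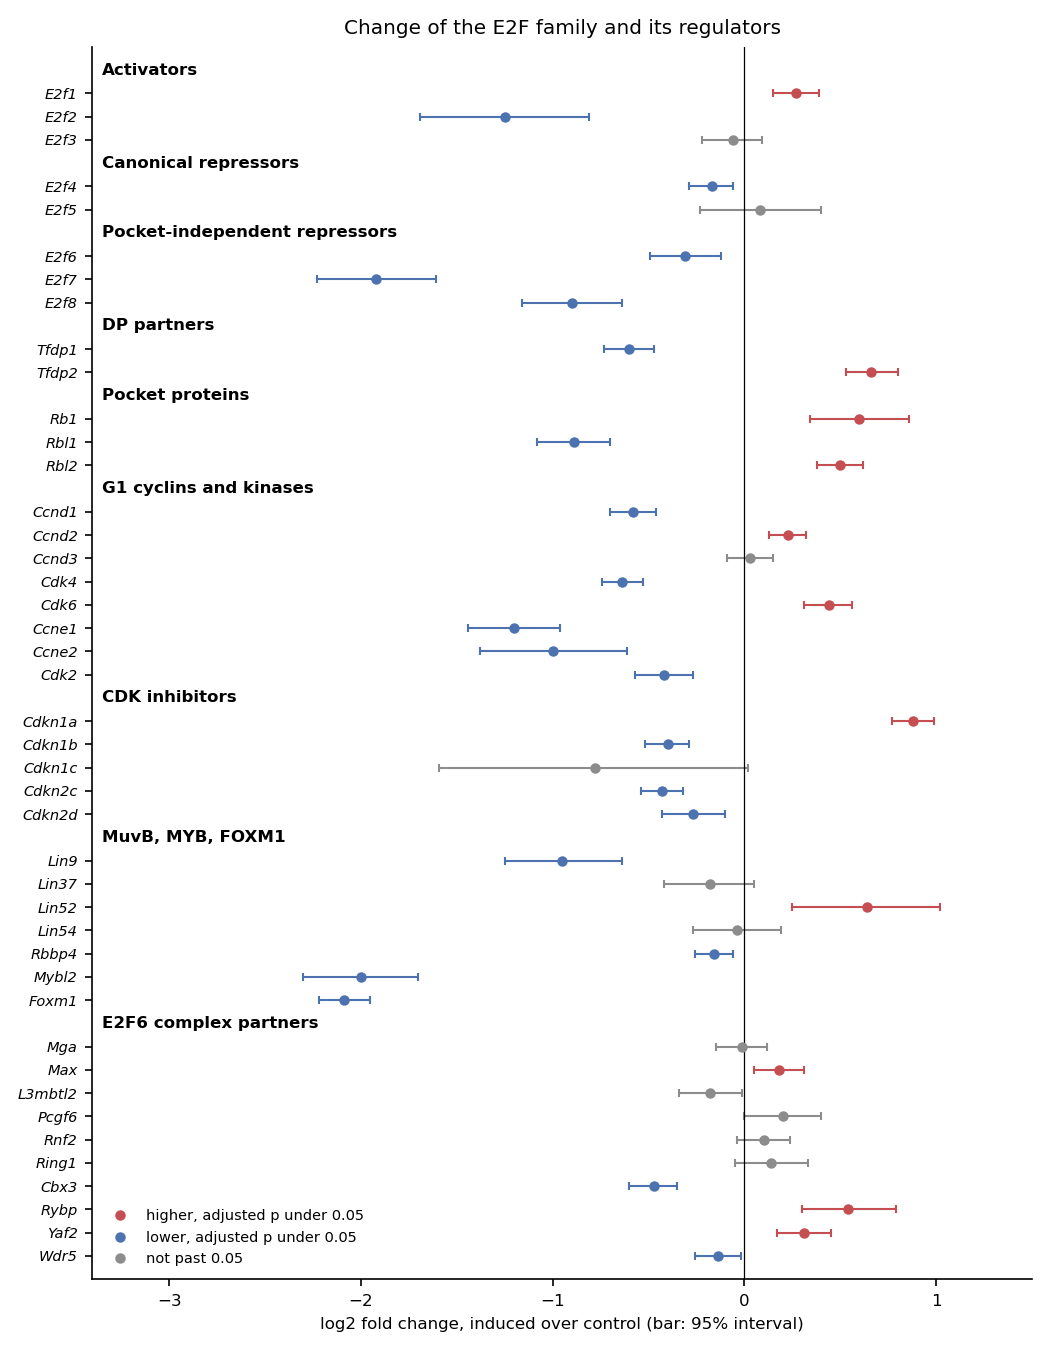
Log2 fold change of induced over control (horizontal axis, points) with its 95% interval (bars) from edgeR for the 10 family members and for the tested pocket proteins, cyclins and kinases, inhibitors, MuvB genes and E2F6 partners, colored by call. E2f7 at -1.92 and E2f2 at -1.25 lie farthest left in the family, Tfdp2 at 0.66 farthest right, and Foxm1 at -2.09 and Mybl2 at -2.00 farthest left of all.

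Among genes that execute the E2F program, the fall was broad. Of 40 G1/S genes known as E2F targets, 39 fell, beside 32.2% of all tested genes, and 26 of them fell at least 2-fold, beside 7.83%. Their median log2 fold change was -1.25, and in 38 of the 40 the induced libraries all lay below the control libraries, beside 34.5% of all tested genes. The list was drawn up with earlier results of these data known, so its direction is a description. Uhrf1, which reads hemimethylated DNA and carries the maintenance methyltransferase to it, stood at 85.3, 83.6 and 85.4 CPM in control and 22.1, 21.7 and 23.5 CPM in induced libraries, and fell by 1.92 ± 0.06 in log2 units (edgeR adjusted p = 2.42e-15). Mcm5 and Mcm6, subunits of the replicative helicase, fell by 1.79 ± 0.06 and 1.39 ± 0.05 in log2 units (edgeR adjusted p = 1.59e-14 and 7.48e-14). Lig1, the ligase that joins Okazaki fragments, fell by 1.23 ± 0.06, and Chaf1a, a chromatin assembly subunit, by 1.63 ± 0.08, in the same units (edgeR adjusted p = 1.01e-12 and 1.17e-12). Chaf1a shares 52.5% of its exon bases with Ubxn6 on the opposite strand. No member of the list rose, and Fen1, the flap endonuclease, had a log2 fold change of -0.10 and did not pass (edgeR adjusted p = 0.689). Fen1 had 183 and 164 reads, and 78.8% of its exon bases lie opposite an antisense gene.

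E2F motifs were common in the windows of these targets. Of the 31 G1/S genes with a window, 23 (74.2%) held one. Beside this stand 10.9% of all genes, and 1990 of the 10323 tested genes with a window. A stretch of 30 bases from each of the 5 lowered targets named above, and from the pocket protein gene Rbl1, is shown for comparison with those of the family members. These stretches too were chosen with the changes known, and further motifs in these windows are not printed. Fen1, which was not called, and Lin52, a MuvB gene given below that rose, also held a motif and are not shown. The stretches are written with motifs in capitals and running on where they overlap. The opening capitals of Mcm5 are a motif cut off by the start of its stretch.
Mcm5 (chr8:75109346-75109375, plus strand): CGCCAAgaactTTCGCGCCAAaacgtccag
Mcm6 (chr1:128359796-128359825, minus strand): ggcgtatgcttTTGGCGCGAAaagtgcgtg
Uhrf1 (chr17:56303278-56303307, plus strand): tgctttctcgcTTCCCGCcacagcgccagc
Chaf1a (chr17:56040358-56040387, plus strand): ggTTGCCGCggTTCCCGCcaaatacgagcg
Rbl1 (chr2:157204533-157204562, minus strand): agaaggcgattTTCGCGCgctttgtcgcgg
Lig1 (chr7:13278846-13278875, plus strand): aagtgcGCGCGAAatctgtgtgGCGCGAAt
The 23 G1/S genes with a motif had a median log2 fold change of -1.27 and the 8 without one -1.13, and 22 of the 23 and all 8 fell. Over all 10323 tested genes with a window, 38.1% of the 1990 with an E2F motif fell, beside 31.6% of the 8333 without one, and 28.7% and 35% rose. The median log2 fold changes were -0.06 and 0.02, and these genes share libraries and base composition, so the shares are given as a description.

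Genes of the late cell cycle fell as well. Foxm1 and Mybl2, the factors that follow E2F in G2, are E2F targets that join the MuvB complex. Foxm1 stood at 74.3, 81.3 and 77.3 CPM in control and 18.1, 19.4 and 17.3 CPM in induced libraries, and fell by 2.09 ± 0.06 in log2 units (edgeR adjusted p = 3.07e-15). Mybl2 fell by 2.00 ± 0.14 in log2 units, from 18.5 to 21.5 CPM in control to 3.67 to 6.36 CPM in induced libraries (edgeR adjusted p = 5.53e-10). Of the MuvB core, Lin9 fell by 0.95 and Rbbp4 by 0.16, Lin52 rose by 0.64, and Lin37 at -0.18 and Lin54 at -0.04 did not pass, all in log2 units (edgeR adjusted p = 0.161 and 0.751). All 24 late targets of MYB-MuvB and FOXM1 fell at least 2-fold, beside 7.83% of all tested genes. Their median log2 fold change was -1.97. Cdc20, the activator of the anaphase-promoting complex, fell by 2.39 ± 0.07, and Bub1b, a spindle checkpoint kinase, by 2.26 ± 0.06, in log2 units (edgeR adjusted p = 1.62e-15 and 5.64e-16). Kif20a, a mitotic kinesin, fell by 2.37, Mki67, the proliferation antigen, by 2.01 and Top2a, a topoisomerase, by 1.82, in log2 units (edgeR adjusted p = 3.11e-15, 2.65e-15 and 3.77e-15). Kif20a shares 29.3% of its exon bases with Cdc23 on the opposite strand. The CHR letters TTTGAA, bound by MuvB, occurred in the windows of 13 of 19 late genes (68.4%) beside 20.2% of all genes, and E2F letters in 15.8% of the late genes. For the G1/S genes, the CHR share was 9.68%.

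**Figure D4:**
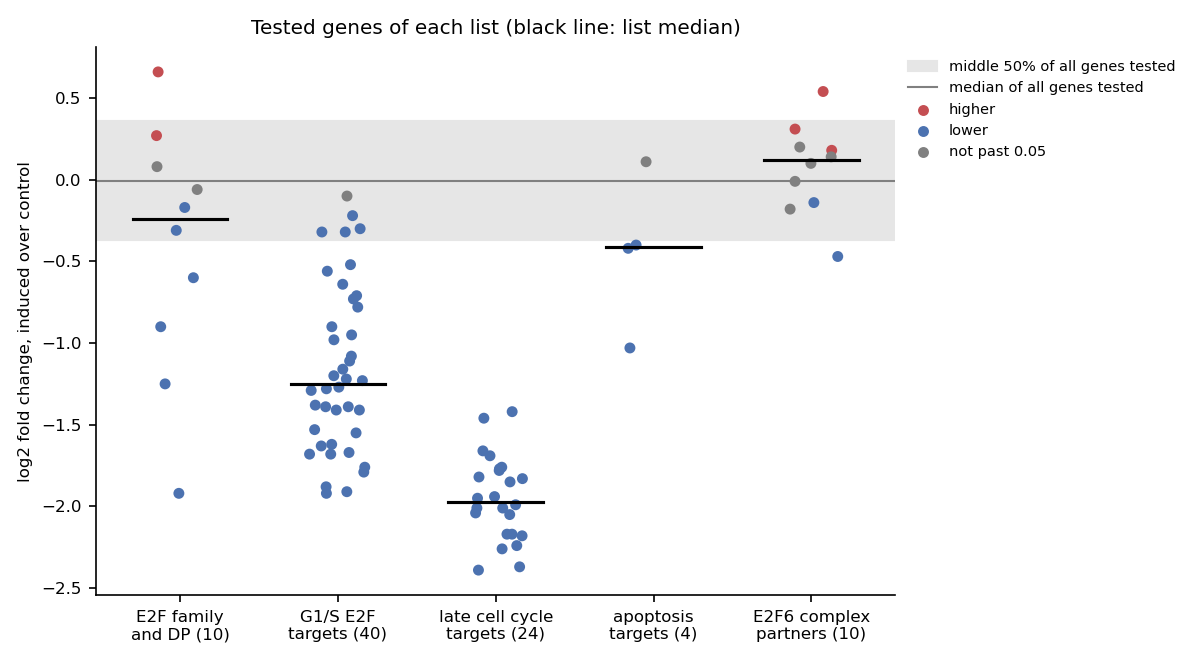
Log2 fold change of induced over control (vertical axis) for each tested gene (points, colored by call), by list. Black lines are list medians, and the middle range of all tested genes is in gray. The lists are the E2F family, its G1/S and apoptosis targets, the late targets of MYB-MuvB and FOXM1, and the E2F6 partners. The family spans -1.92 to 0.66, whereas the medians of the G1/S and late lists lie at -1.25 and -1.97.

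**Figure D5:**
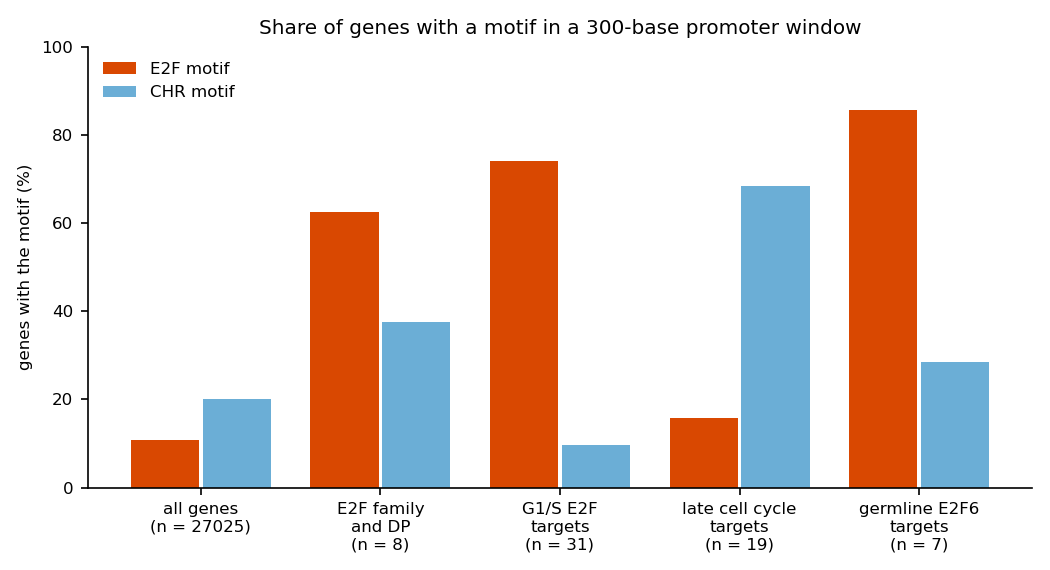
Percent of genes with a RefSeq promoter window that hold an E2F motif (orange) or the CHR motif (blue), for all genes, the family and 3 target lists, with the number of genes under each pair of bars. E2F letters occur in 74.2% of G1/S targets and 15.8% of late targets, and CHR letters in 9.68% and 68.4%.

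E2F activators are also known to drive genes of apoptosis, and of the 6 reported here 4 could be tested, of which 3 fell, beside 32.2% of all tested genes, and none rose. Bcl2l11, the BIM gene, fell by 1.03 ± 0.08 in log2 units (edgeR adjusted p = 1.62e-09). Apaf1, the apoptosome scaffold, fell by 0.42 and Bbc3, the PUMA gene, by 0.40, in log2 units (edgeR adjusted p = 4.65e-06 and 0.000419). Casp8, an initiator of apoptosis, had a log2 fold change of 0.11 and did not pass (edgeR adjusted p = 0.207). Trp73 and Hrk had 4 and 1 reads in the 6 libraries together and were not tested.

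Of the 10 partners of E2F6 in its Polycomb complex, 5 were called, beside 64.8% of all tested genes. Of the 10, 3 were higher, beside 32.6%, and 2 lower, beside 32.2%. Their median log2 fold change was 0.12. Rybp rose by 0.54, Yaf2 by 0.31 and Max, the DNA-binding partner of Mga, by 0.18, in log2 units (edgeR adjusted p = 0.00047, 0.00047 and 0.0141). Cbx3, a heterochromatin protein, fell by 0.47 and Wdr5 by 0.14, in log2 units (edgeR adjusted p = 1.15e-06 and 0.0416). Wdr5 lost its call in 10 of 14 alternative settings and Max in 3, and the groups of Max overlapped. Mga at a log2 fold change of -0.01, L3mbtl2 at -0.18, Pcgf6 at 0.20, Rnf2 at 0.10 and Ring1 at 0.14 did not pass (edgeR adjusted p = 0.853, 0.0596, 0.0755, 0.215 and 0.175). L3mbtl2 shares 17.2% of its exon bases with Chadl on the opposite strand.

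Germline genes that E2F6 is known to keep silent, and that DNA methylation silences too, were near 0 in control cells. Tuba3a and Tuba3b, testis tubulins, had 0 reads in all 3 control libraries and 59 and 137 reads over the 3 induced libraries. Against a floor of 3 counts over the control group, this was at least 20.5-fold and 47.6-fold higher. With 0 control reads, they passed the filter through the induced libraries alone and could only be called higher. Their calls (edgeR adjusted p = 2.63e-06 and 3.92e-08) are therefore no support for the direction. Their transcripts are 96.5% identical over 1447 bases, so reads may have been split between them. Slc25a31, a testis ADP/ATP carrier, had 0 control reads and 31 induced reads, at least 10.8-fold higher, and was too low to test. Stag3, a meiotic cohesin, stood at 0.355, 0.866 and 0.651 CPM in control and 1.12, 0.894 and 1.15 CPM in induced libraries, and the log2 fold change of 0.75 did not pass (edgeR adjusted p = 0.0809). Smc1b, Hsf2bp and Taf7l had 1, 10 and 1 control reads and 5, 25 and 7 induced reads and were not tested. E2F letters occurred in 6 of the 7 windows of these genes (85.7%), and the sites of the 3 that went from 0 to some reads read as follows, with 2 in Slc25a31.
Tuba3a (chr6:125286183-125286212, minus strand): actccagagccTTCCCGCcaaagccacatc
Tuba3b (chr6:145615845-145615874, plus strand): actccagagccTTCCCGCcaaatttacatc
Slc25a31 (chr3:40708797-40708826, plus strand): ccccacgccagGCGCCAAggccgttgggcg
Slc25a31 (chr3:40708879-40708908, plus strand): cagcgcccgctTTCCCGCcagggtaaagct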

How the data were processed

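Total RNA of 3 control and 3 induced cultures was sequenced, and groups follow the labels. The authors deposited 1 table with a raw read count per gene and library, and FPKM values, which divide each count by gene length and by a depth 0.98 to 1.03 times the library total. The submitters' processing notes name HISAT2 2.0.5, featureCounts 1.5.0-p3, DESeq2 1.16.1 and mm10 without stating their roles. The study's methods instead name DESeq with a pair of replicates per condition, whereas the table has 3 columns per group. The strand setting is not given in the sources used here. Of 54409 genes shared with GENCODE M21, 98.3% have its GRCm38 coordinates. Deposited fold changes, p-values and enriched Gene Ontology terms are the authors' comparison and were not used.

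The 10 members and all gene lists were chosen with earlier results of these data known. Counts were filtered by filterByExpr (minimum count 10, minimum total 15), which kept 14246 genes with 99.9% of reads. They were scaled by TMM and tested two-sided with edgeR 4.0.16 in R 4.3.3 (glmQLFit, glmQLFTest), with Benjamini-Hochberg adjustment over all genes tested. CPM are TMM-scaled. The biological coefficient of variation was 5.82%. SE are from the fit and intervals are 95%. The procedure was tested on simulated data. Alternatives were RLE and library-total scaling, no filter and a stricter one, DESeq2 1.42.0, limma 3.58.1 with trend on log2 FPKM after adding a pseudocount of 1 or of 0.1, the replicate number as a block, other thresholds and each library left out. Samples with the same number were compared for pairing.

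The text names all 10 members, every member of pathway lists of up to 10 genes and, of longer lists, the 5 tested genes with the smallest p and any called in the direction opposite to most of the list. Results of 2 genes of the apoptosis list are not reported here. Marker lists are given by sums, counts and members at 0, and the markers named for their change were chosen after their values were seen. Genes that share exon bases, or at least 200 bases of 95% identity, with another gene are uncertain. Beside those for which the text gives the overlap, these were Ccnd2, Ccnd3, Cdk2, Cdk6, Cdkn1a, Lin37, Rbbp4, Foxm1, Mybl2, Rybp, Rnf2, Uhrf1, Lig1, Cdc20, Mki67, Top2a, Trp73 and Hsf2bp. Floors of 3 counts cover counting error only, since reads carry no molecular identifiers. Promoter sequences are from RefSeq (GRCm38.p6).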

Additional observations from a re-analysis of the deposited data

How the results depend on the processing

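At an adjusted p of 0.05, all 8 changed E2F family members kept their direction and their call under every other scaling, filter, tool, block and left-out library tried, and the 2 uncalled members stayed uncalled. E2f5 alone changed sign, to -0.02 without control replicate 2. The least secure calls were E2f4 and E2f6, with adjusted p up to 0.0485 and 0.0478. Asking for at least 2-fold as well as the adjusted p left 2438 genes, 2 family members and 56 pathway genes, in place of 9225, 8 and 92. Leaving out each library in turn gave 8514 to 9348 genes, 8 to 8 members and 89 to 92 pathway genes. With the replicate number as a block, 9063 genes, 8 members and 92 pathway genes were called. Same-numbered samples deviated with correlations of 0, -0.02 and 0.03, so the numbers were not taken as pairs. DESeq2 called 8471 genes and limma 8887 and 8894. The pseudocount of 1 FPKM shrank low members, E2f7 to -0.69, E2f2 to -0.42 and E2f8 to -0.53, by construction. Scaling by library totals moved the median of all genes by -0.04 and lowered the share of calls that were higher from 50.3% to 46.5%. Of 1609 values of single genes under alternatives, 0 reversed, 19 lost their call (Wdr5, Ung and Max) and 5 gained one (Pcgf6, L3mbtl2, Ring1 and Stag3). The stricter filter left 1 of the germline genes called. The count of E2F6 partners called went from 5 to 3 without control replicate 1, control replicate 2 or induced replicate 3. It was also 3 at an adjusted p of 0.01. Low depth limits E2f2, Cdkn1c, Fen1 and the germline genes.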
